A study of Mus musculus with 18 samples.

Results

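The whisker pad of mice was compared 7 days after cutting its motor nerve, between the paralyzed side and the sham-operated side of the same animals. The members are the 6 of 18 libraries whose labels give day 7, made from both sides of 3 of the 9 mice of the series, and each denervated library was set against the sham library of its own mouse. The other 12 libraries come from other mice at days 1 and 3 and enter only where the effect of denervation is compared between days. The labels call the sides Lesioned and Intact. On the denervated right side, 2 branches of the facial nerve, the buccal and the superior marginal, were exposed and cut. The sham left side had a skin incision alone, without a nerve cut, so that every sample came from an operated face, and the lesion and the side of the face cannot be told apart. On each side a punch of the rostral pad, holding skin as well as muscle, was ground whole and its poly(A) RNA was sequenced. The RNA-seq mice were adults several months old, and the study used both sexes. The strain of these mice, and the age and sex of each day 7 mouse, are not given in the sources used here. Of 35150 genes with a value in the table, 15081 had at least 1 TPM (the share of a transcript among all transcripts of a sample, corrected for length) in enough of the 6 samples to be tested.

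Skeletal muscle fibers that lose their motor axon return in part to an embryonic program. Acetylcholine receptors, which in the adult sit only under the nerve ending, are made again along the whole fiber, now with the fetal gamma subunit in place of the adult epsilon subunit, and the myogenic basic helix-loop-helix factors that drive receptor genes in development are induced. Fibers also rebuild their ion channels, calcium handling and metabolism and can waste through the ubiquitin-proteasome and autophagy systems. In the cut nerve, Schwann cells dismantle their myelin and take on a repair state. The whisker pad samples also hold epidermis, whisker follicles, glands, vessels and resident immune cells. In such bulk tissue, fewer cells of a type and less RNA per cell cannot be told apart.

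The 6 libraries were of similar depth, estimated from the steps between low values at 12600000 to 14200000 reads each, and 14813 to 15432 genes reached 1 TPM in a library. Markers of the labelled tissue were abundant on both sides: the summed level of 12 skeletal muscle fiber markers lay between 26573 and 31789 TPM in all 6 samples, and that of 12 keratinocyte markers between 6102 and 8925 TPM. Blood content varied most. The 4 adult hemoglobin genes took 16.69% of the values of the denervated side of mouse 2, against 0.38% in the sham side of mouse 3 and 2.65% to 6.11% in the other 4 libraries. No hemoglobin gene was called. The part of blood content in the results below was not tested, beyond refitting with other scaling. With an equal sum per sample over all genes, hemoglobin included, 129 genes were called, 128 of them among the 328 called as deposited. A refit added after seeing the data took an equal sum over the genes other than hemoglobin. It called 341 genes, 299 of them among the 328, and its median log2 difference over all genes was 0.11, against 0.04 as deposited.

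At day 7, 328 of 15081 genes differed between the sides at an adjusted p under 0.05 (limma, paired by mouse), which is 2.17% of the genes tested. There were 215 genes higher (1.43%) and 113 lower (0.749%) in the denervated pad, and 314 of the 328 were protein coding. The median log2 difference was 1.27 among the higher genes and -1.19 among the lower genes, against 0.04 over all genes tested. A change of at least 2-fold was reached by 148 of the higher and 78 of the lower genes, and one of at least 8-fold by 19 and 4. Every called gene moved the same way in all 3 mice. The 3 denervated values lay entirely above the 3 sham values in 199 of the 215 higher genes, where 10.6% of all genes tested did so, and entirely below in 108 of the 113 lower genes, where 7.06% of all did. The called genes were selected on these same values, so their direction and lack of overlap describe the calls and add no separate evidence. At an unadjusted p under 0.05, 1615 genes were higher (10.7%) and 1050 lower (6.96%). Over all 15081 genes tested, 8453 differences lay above 0 and 6628 below. Counts for gene lists below are read against these shares. The count was most sensitive to mouse 3: without mouse 3, 69 genes passed, without mouse 2, 153, and without mouse 1, 273.

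**Figure D1:**
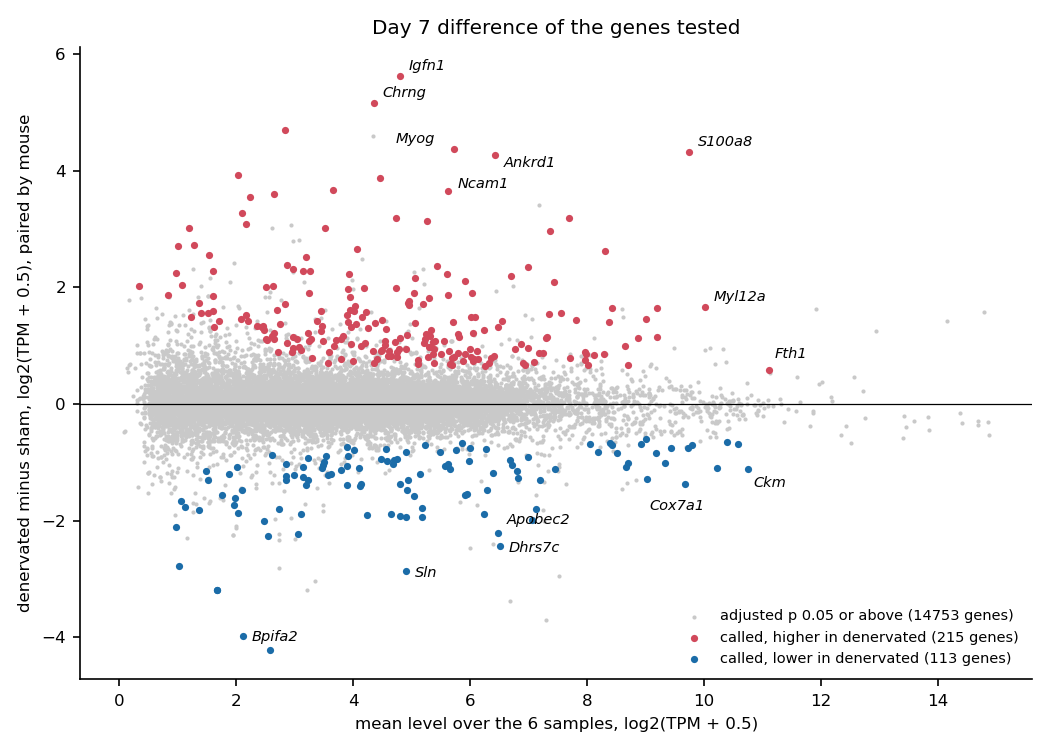
Each point is a gene tested at day 7, with its mean level over the 6 samples on the horizontal axis, as log2(TPM + 0.5), and the paired difference, denervated minus sham, on the vertical axis on the same scale. The 215 called genes that were higher (red) reached differences above 5 at low and middle levels (Igfn1, Chrng) and extended to abundant genes such as Myl12a and Fth1. The 113 that were lower (blue) also extended to highly expressed genes, such as the muscle genes Ckm and Cox7a1.

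The subunits of the muscle acetylcholine receptor had the largest median change of the lists described here. Of the 5 subunit genes, 4 rose and 1, the adult epsilon subunit Chrne, did not pass the test, and the median log2 difference of the 5 was 3.18. The fetal gamma subunit Chrng measured 0.18, 1.92 and 0.226 TPM in the sham sides of mice 1, 2 and 3 and 23.9, 49.6 and 44.2 TPM in their denervated sides. The sides were far apart, with a log2 difference of 5.16 ± 0.30, or 35.8-fold (limma adjusted p = 0.00488). Here and below, ± gives the moderated SE of the limma fit, which draws on all genes and is not the spread between mice. Log2 differences and folds are of TPM + 0.5, which understates the change of low genes. The ligand-binding alpha subunit Chrna1 rose from 5.46, 6.32 and 3.06 TPM to 50.6, 47.7 and 43.5 TPM, a log2 difference of 3.18 ± 0.18 (limma adjusted p = 0.00488). The delta subunit Chrnd, also at the binding site, went from 1.75, 4.63 and 1.33 TPM to 35.2, 43.5 and 41.8 TPM, a log2 difference of 3.88 ± 0.28 (limma adjusted p = 0.00715). The beta subunit Chrnb1 had the highest sham level of the 4 that rose, at 24.8, 34.8 and 22.1 TPM, and reached 81.9, 106 and 120.0 TPM, with the smallest rise of the 4 at 1.91 ± 0.18 (limma adjusted p = 0.0144). Chrne measured 25.4, 35.1 and 19.99 TPM in the sham sides and 29.96, 21.6 and 34.6 TPM in the denervated sides. Its sides overlapped, since it was higher in mice 1 and 3 and lower in mouse 2, and the log2 difference was 0.11 ± 0.28 (limma adjusted p = 0.874), a value that takes the other sign without mouse 3. TPM is corrected for transcript length, so the subunits can be set side by side: in the sham pad the epsilon subunit lay above the gamma subunit in every mouse, and in the denervated pad gamma lay above epsilon in mice 2 and 3 and below it in mouse 1.

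The E-box, CANNTG, is the DNA word bound by myogenin and its relatives, and the stretches of 250 bases before the start sites of receptor subunits, Musk and Myog are shown because receptor genes and their regulators are the best known targets of denervation, with the epsilon subunit, which did not pass the test, beside those that did. Sequences are from RefSeq on GRCm38.p6, each printed 5′ to 3′ on the gene's own strand, with every CANNTG in capitals. CANNTG reads the same way on both strands. Of 11 genes looked for, 6 had an entry: Chrna1 (chr2:73580339-73580588, minus strand), Chrnb1 (chr11:69795938-69796187, minus strand), Chrng (chr1:87205561-87205810, plus strand), Chrne (chr11:70619195-70619444, minus strand), Musk (chr4:58285712-58285961, plus strand) and Myog (chr1:134289754-134290003, plus strand). Chrnd, Ncam1, Gdf5, Sln and Dhrs7c had none.
Chrng: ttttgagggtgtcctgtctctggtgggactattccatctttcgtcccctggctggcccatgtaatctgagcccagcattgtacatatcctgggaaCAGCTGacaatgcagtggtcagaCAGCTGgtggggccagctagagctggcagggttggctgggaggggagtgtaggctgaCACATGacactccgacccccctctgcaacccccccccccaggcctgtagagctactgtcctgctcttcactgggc
Chrna1: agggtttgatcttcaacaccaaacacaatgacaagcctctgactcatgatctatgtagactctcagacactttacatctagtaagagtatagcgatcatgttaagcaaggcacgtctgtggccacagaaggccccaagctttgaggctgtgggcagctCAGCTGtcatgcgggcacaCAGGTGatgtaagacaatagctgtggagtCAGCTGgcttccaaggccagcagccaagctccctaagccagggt
Chrnb1: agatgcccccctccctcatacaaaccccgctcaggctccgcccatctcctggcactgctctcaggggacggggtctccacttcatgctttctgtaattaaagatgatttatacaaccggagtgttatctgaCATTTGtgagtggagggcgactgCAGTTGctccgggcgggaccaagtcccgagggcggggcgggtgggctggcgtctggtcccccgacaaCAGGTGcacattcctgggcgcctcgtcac
Chrne: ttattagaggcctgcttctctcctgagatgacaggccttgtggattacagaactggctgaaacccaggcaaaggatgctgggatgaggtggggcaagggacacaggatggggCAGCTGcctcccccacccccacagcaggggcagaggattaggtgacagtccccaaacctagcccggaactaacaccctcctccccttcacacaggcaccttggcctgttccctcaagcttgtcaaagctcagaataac
Musk: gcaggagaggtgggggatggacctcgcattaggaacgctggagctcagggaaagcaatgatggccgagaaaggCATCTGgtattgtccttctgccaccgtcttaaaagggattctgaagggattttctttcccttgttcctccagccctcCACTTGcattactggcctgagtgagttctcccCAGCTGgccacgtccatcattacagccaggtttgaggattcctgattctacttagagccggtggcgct
Myog: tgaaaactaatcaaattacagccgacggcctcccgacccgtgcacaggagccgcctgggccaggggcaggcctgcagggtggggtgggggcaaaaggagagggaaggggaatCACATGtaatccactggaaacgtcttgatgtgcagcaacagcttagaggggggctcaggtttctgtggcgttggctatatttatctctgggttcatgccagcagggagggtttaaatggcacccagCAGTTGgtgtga
The form CAGCTG occurred 2 times in Chrng, at bases 155 to 150 and 132 to 127 before the start, and 2 times in Chrna1, at bases 92 to 87 and 44 to 39. Among all 32851 RefSeq promoters of this length, 13% held at least 1 CAGCTG and 1.26% held 2 or more. Chrne and Musk held 1 CAGCTG each and Chrnb1 and Myog none. Any CANNTG was common, in 66.2% of all promoters, and 3 or more in 12.2%, the number found in Chrna1, Chrnb1, Chrng and Musk. These are matches of letters within this window, not measured binding.

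**Figure D2:**
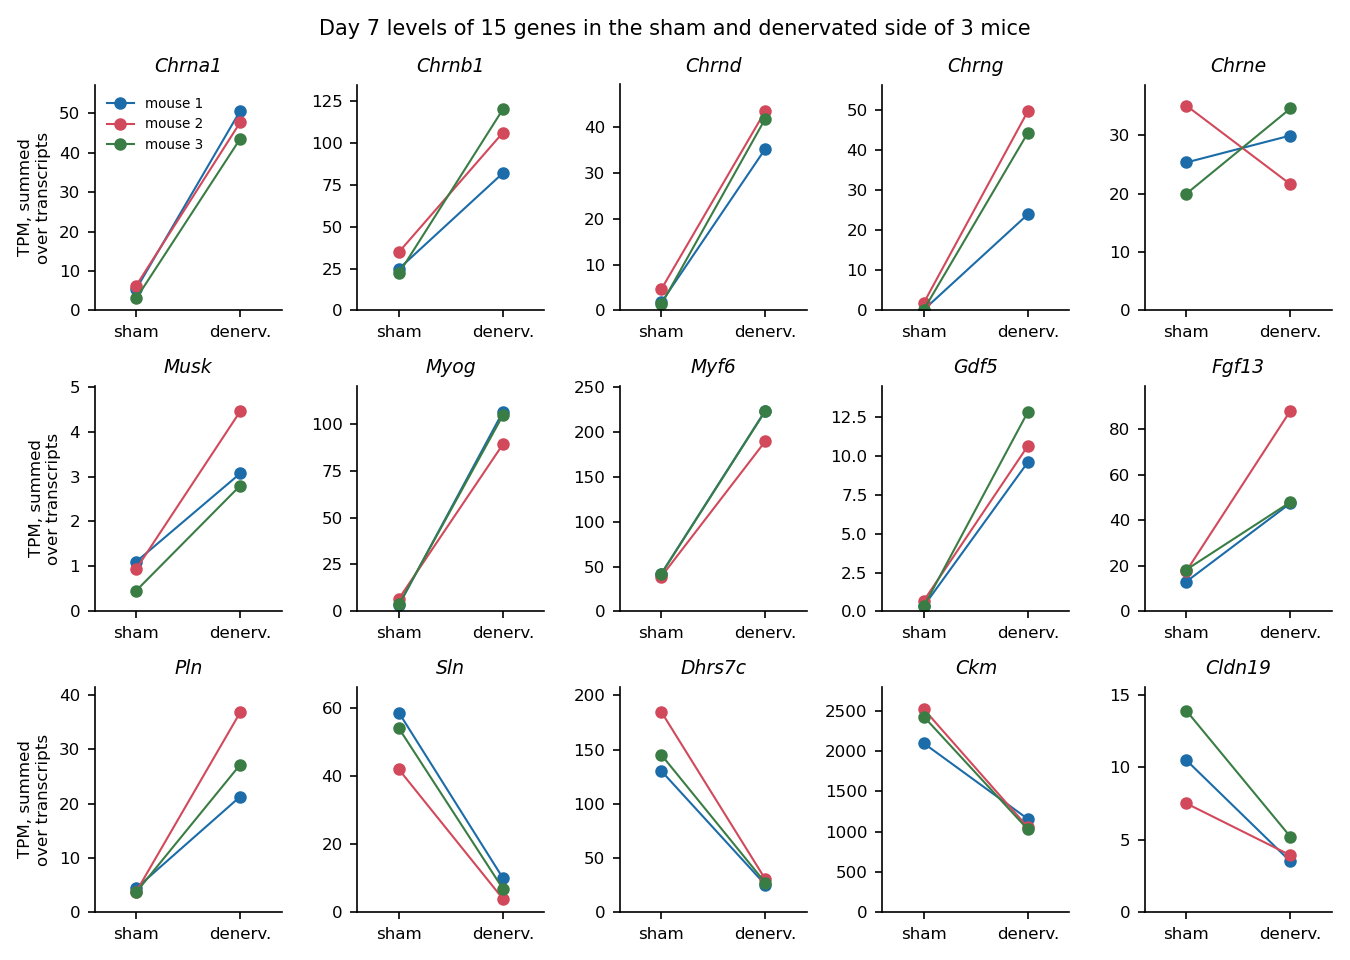
Levels of 15 genes in TPM, summed over transcripts, in the sham and denervated side of mice 1 (blue), 2 (red) and 3 (green), with a line joining the sides of a mouse and each vertical axis starting at 0. Lines rise together for 4 receptor subunits, Musk, Myog, Myf6, Gdf5, Fgf13 and Pln, cross for Chrne, and fall for Sln, Dhrs7c, Ckm and Cldn19.

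Genes that place and hold the receptor at the synapse moved much less as a group. Of 16 synapse organizers and synaptic proteins tested, 3 rose, none fell, and the median log2 difference was 0.08. The receptor tyrosine kinase Musk, the organizer of the postsynaptic membrane, measured 1.11, 0.947 and 0.464 TPM in the sham sides and 3.07, 4.45 and 2.8 TPM in the denervated sides. Its log2 difference was 1.57 ± 0.23 (limma adjusted p = 0.0381). The neural cell adhesion molecule Ncam1, long used as a surface sign of denervated fibers, rose from 4.41, 14.2 and 4.19 TPM to 122, 84 and 65.6 TPM, a log2 difference of 3.66 ± 0.38 (limma adjusted p = 0.017). A large part of that value came from a transcript of 146 bases. With transcripts under 300 bases left out, an alternative chosen after seeing the data, Ncam1 measured 4.41, 6.28 and 4.19 TPM against 41.1, 43.4 and 32.6 TPM, and the sides stayed as clearly apart, with a log2 difference of 2.87 (limma adjusted p = 0.00187). The intermediate filament Nes, which is kept near the synapse in adult fibers, rose by a smaller step, 0.79 ± 0.12 (limma adjusted p = 0.0463). The partners of Musk did not pass: the anchoring protein Rapsn, named with Ache after their values were seen, stood at 4.9, 8.27 and 7.56 TPM against 4.9, 7.96 and 9.55 TPM. Agrn, the nerve- and muscle-derived ligand of the pathway, stood at 72, 75.4 and 89.4 TPM against 51.7, 60.5 and 80.5 TPM (limma adjusted p = 0.235). The acetylcholinesterase gene Ache was lower in each mouse, 12.3, 28.3 and 16.4 TPM against 8.17, 8.32 and 9.96 TPM without overlap, but its log2 difference of -0.99 ± 0.24 did not pass (limma adjusted p = 0.131).

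Most of the myogenic regulators tested rose. Of 10 genes tested, 6 rose, none fell, and the median log2 difference was 0.92. Myogenin, Myog, measured 3.25, 6.72 and 3.71 TPM in the sham sides and 106, 89 and 104 TPM in the denervated sides. This was 20.6-fold, a log2 difference of 4.37 ± 0.25 (limma adjusted p = 0.00488), with the 3 denervated values close to each other. Myf6, the myogenic factor most expressed in adult fibers, already stood at 42.2, 38.9 and 41.8 TPM and reached 224, 189.8 and 224 TPM, a log2 difference of 2.36 ± 0.10 (limma adjusted p = 0.00488). Myod1 rose less, from 6.38, 10.8 and 9.6 TPM to 25.2, 22.8 and 28.6 TPM, a log2 difference of 1.49 ± 0.18 (limma adjusted p = 0.0255). Mymk, the membrane protein that fuses myoblasts, was near its detection limit in the sham pad at 0.269, 0.946 and 0.232 TPM and measured 9.15, 7.34 and 6 TPM after denervation (log2 difference 3.08 ± 0.28, limma adjusted p = 0.0114). Among the MEF2 factors, which act with the myogenic factors, Mef2a (0.86) and Mef2c (0.77) rose on the log2 scale and Mef2d did not pass, at 32, 41.3 and 39.2 TPM against 35.2, 42.4 and 41.5 TPM. The satellite cell markers Pax7 and Myf5 were too low to be tested. The summed level of 6 satellite cell markers was 103, 121 and 108 TPM in the sham sides and 160.0, 143 and 157 TPM in the denervated sides, without overlap, while 0 of its 4 members tested were called (limma) and 3 were higher at an unadjusted p under 0.05. Cdh15, the satellite cell cadherin, stood at 2.11, 3.97 and 3 TPM against 6.77, 5.98 and 6.28 TPM (limma adjusted p = 0.101).

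In the HDAC4 and Runx1 list, genes that couple nerve activity to transcription, calls were all higher. Of 7 tested, 3 rose and none fell. The class II histone deacetylase Hdac4, which represses the genes that repress Myog, measured 8.27, 8.35 and 8.04 TPM in the sham sides and 17.7, 17.8 and 21.7 TPM in the denervated sides. The sides did not overlap and the log2 difference was 1.16 ± 0.13 (limma adjusted p = 0.019). Runx1, a transcription factor known to limit wasting of denervated fibers, went from 5.87, 6.6 and 6.26 TPM to 22.1, 25.2 and 23.1 TPM, a log2 difference of 1.83 ± 0.11 (limma adjusted p = 0.00488). Gadd45a, a stress-induced nuclear protein downstream of HDAC4, rose 7.79-fold, from 32.3, 47.2 and 32.5 TPM to 314, 243 and 319.6 TPM (log2 difference 2.96 ± 0.21, limma adjusted p = 0.00693). The related deacetylase Hdac5 lay in the opposite direction, 76, 87.8 and 69.6 TPM against 57.9, 54.8 and 62.4 TPM, without passing (limma adjusted p = 0.205).

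In growth signaling, 8.33% of the BMP, GDF and myostatin list and 10.5% of the IGF, AKT and mTOR list were called higher. Of all genes tested, 1.43% were. In the BMP, GDF and myostatin list, 2 of 24 rose and none fell, with a median of 0.12. The BMP ligand Gdf5, known to oppose wasting in denervated muscle, was close to absent in the sham pad at 0.35, 0.694 and 0.339 TPM and measured 9.59, 10.6 and 12.8 TPM in the denervated pad. The sides were separated by a log2 difference of 3.59 ± 0.21, or 12.1-fold (limma adjusted p = 0.00488). The intracellular transducer Smad3, which serves the TGF-beta and myostatin branch, rose from 10.4, 12.4 and 11.9 TPM to 27, 24.2 and 22.2 TPM, a log2 difference of 1.05 ± 0.14 (limma adjusted p = 0.0283). The BMP target genes Id2 and Id3 did not pass: Id2 stood at 92.8, 67.1 and 112 TPM against 100, 92.2 and 112 TPM, and Id3 at 53.4, 58.1 and 70.9 TPM against 41.9, 56 and 87.7 TPM, with overlapping sides. Myostatin itself, Mstn, named after its values were seen, was lower in each mouse at 20.7, 24.7 and 31.8 TPM against 12.7, 18.6 and 14.9 TPM, but did not pass (log2 difference -0.72 ± 0.16, limma adjusted p = 0.101). In the IGF, AKT and mTOR list, 2 of 19 rose and none fell: the binding protein Igfbp5 (log2 difference 0.89 ± 0.10) and the kinase Akt2 (1.03 ± 0.10, limma adjusted p = 0.0151). For Akt2, 33.3% of the 31-base words of its main transcript also occur in a pseudogene copy, so the value of this gene alone is uncertain.

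Among the genes best known for muscle wasting, the share called at day 7 was 0% of ligases, 0% of proteasome subunits and 4.76% of autophagy genes. Over all genes tested the share was 2.17%. Of 17 ubiquitin ligases and related genes of atrophy, limma called none, with 5 higher and 1 lower at an unadjusted p under 0.05 and a median log2 difference of 0.13. The 2 classical atrophy ligases, named here for that role after their values were seen, were among them. Fbxo32 (atrogin-1) measured 7.01, 9.83 and 12.3 TPM in the sham sides and 13.2, 9.29 and 11.4 TPM in the denervated sides, which overlapped (log2 difference 0.23 ± 0.22, limma adjusted p = 0.643). Trim63 (MuRF1) measured 32, 41.9 and 42.1 TPM against 51.4, 50.8 and 53.9 TPM, higher in every mouse without overlap, with a log2 difference of 0.44 ± 0.12 (limma adjusted p = 0.164). With 3 mice these values do not show that the genes were equal on both sides. The 32 proteasome subunits lay slightly above 0 in 31 cases, with a median of 0.19 and a largest difference of 0.64. None was called by limma, and 5 were higher and none lower at an unadjusted p under 0.05. In the autophagy and lysosome list 19 of 21 lay above 0, with a median of 0.21. At an unadjusted p under 0.05 (limma), 8 were higher and 1 lower. The list summed to 2617, 2577 and 2249 TPM in the sham sides and 3589, 3628 and 3018 TPM in the denervated sides, without overlap. Only 1 of the 21 was called: cathepsin L, Ctsl, from 162, 165 and 128 TPM to 320.0, 269.5 and 202 TPM (log2 difference 0.78 ± 0.11, limma adjusted p = 0.0332). Cathepsin D, Ctsd, at 460.2, 472 and 342 TPM against 664, 620.3 and 486 TPM, and the autophagosome protein gene Map1lc3a, at 440.5, 533 and 403 TPM against 645, 659 and 792 TPM, were higher in each mouse without passing (limma adjusted p = 0.0805 and 0.127). Spermine synthase, Sms, was the only called gene of 14 in polyamine metabolism (log2 difference 1.11 ± 0.13, limma adjusted p = 0.0203). Of 26 heat shock proteins and co-chaperones, 2 rose, both small muscle chaperones: Hspb8 went from 182, 160.0 and 158 TPM to 525, 564 and 475 TPM and Hspb7 from 95.7, 106 and 83.5 TPM to 276, 268 and 294 TPM. Their log2 differences were 1.64 ± 0.10 and 1.55 ± 0.12 (limma adjusted p = 0.00542 and 0.00881), while the more abundant Cryab stood at 971, 762 and 903 TPM against 961, 898 and 962 TPM.

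Ion channel genes moved in both directions, so that the medians of the lists hide the changes. Of 9 sodium channel genes and partners, 2 rose and 1 fell. Fgf13, an intracellular partner of sodium channels, measured 13.1, 17.7 and 18.3 TPM in the sham sides and 47.4, 87.9 and 47.9 TPM in the denervated sides, highest in mouse 2 (log2 difference 1.82 ± 0.19, limma adjusted p = 0.0167). The accessory subunit Scn4b fell from 31.7, 56.3 and 42.3 TPM to 17.4, 18 and 15.4 TPM (log2 difference -1.30 ± 0.17, limma adjusted p = 0.0296). Of 21 potassium and chloride channel genes, 2 rose and 4 fell. The small-conductance calcium-activated channels parted: Kcnn3, which underlies the long afterpotential of denervated fibers, rose from 2.5, 3.16 and 2.72 TPM to 13.9, 18.4 and 14.2 TPM, and Kcnn2 fell from 5.28, 5.22 and 4.56 TPM to 2.13, 2.06 and 2.11 TPM. Their log2 differences were 2.27 ± 0.13 and -1.08 ± 0.16 (limma adjusted p = 0.00488 and 0.0375). The voltage-gated channels Kcna7 (log2 difference -1.89) and Kcnc1 (-1.30) fell, and the beta subunit Kcne1l, below 1 TPM in every sham side, rose to 3.7, 2.24 and 2.79 TPM. Clcn1, the chloride channel that stabilizes the resting fiber, measured 20.2, 36.4 and 31 TPM against 12.2, 20.9 and 17.5 TPM. The sides of Clcn1 overlapped across mice, but it was lower within each mouse (log2 difference -0.77 ± 0.10, limma adjusted p = 0.0318).

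In excitation-contraction coupling and calcium handling, 1 of 27 genes rose and 3 fell. Sarcolipin, Sln, a small membrane peptide that inhibits the pump SERCA, fell from 58.8, 42.1 and 54.2 TPM to 10.2, 4.04 and 7 TPM. Its log2 difference was -2.86 ± 0.17, a 7.25-fold decrease (limma adjusted p = 0.00488). Phospholamban, Pln, the related inhibitor best known from heart and slow muscle, rose from 4.46, 3.83 and 3.74 TPM to 21.3, 36.8 and 27.2 TPM, a log2 difference of 2.65 ± 0.20 (limma adjusted p = 0.00801). In the sham pad Sln exceeded Pln in every mouse, and in the denervated pad Pln exceeded Sln in every mouse. Dhrs7c, a sarcoplasmic reticulum dehydrogenase, fell from 130.4, 185 and 145 TPM to 25.5, 30.6 and 27.3 TPM, with denervated values close together (log2 difference -2.43 ± 0.11, limma adjusted p = 0.00488). Parvalbumin, Pvalb, the calcium buffer of fast fibers, fell from 2195, 1655 and 1782 TPM to 1361, 952 and 1209 TPM (log2 difference -0.68 ± 0.10, limma adjusted p = 0.0379). The pump itself, Atp2a1, stood at 6780, 7879 and 6799 TPM against 4794, 4090 and 4556 TPM. It was lower in each mouse without overlap, with a log2 difference of -0.67 ± 0.13 that did not pass (limma adjusted p = 0.0702). Casq1, the calcium store protein, stood at 544, 648 and 544 TPM against 603, 421 and 452 TPM, with overlapping sides.

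The list of developmental and cardiac sarcomere isoforms, which also holds muscle ankyrin repeat genes and other structural genes such as Csrp3, mostly lay above 0. Of 15 tested, 8 rose and 1 fell, with a median of 1.13, and of 31 adult sarcomere genes 4 rose and 2 fell, with a median of 0.16. Whether the 2 shares differ was not tested. The muscle ankyrin repeat genes, whose products bind titin and respond to stretch, made up 3 of the 8. Ankrd1 measured 11.5, 11.1 and 3.9 TPM in the sham sides and 175, 169 and 145 TPM in the denervated sides, a 19.2-fold rise (log2 difference 4.26 ± 0.26, limma adjusted p = 0.00488). Ankrd2 went from 45.4, 45.5 and 30.9 TPM to 318, 415 and 382 TPM and Ankrd23 from 58.9, 116 and 92.7 TPM to 449.5, 538 and 633 TPM, with log2 differences of 3.19 ± 0.17 and 2.63 ± 0.16. For Ankrd23, 89.7% of the 31-base words of its main transcript also occur in an overlapping predicted gene, so its own level is uncertain. The light chains Myl4 and Myl6b rose together. Myl4 went from 14.3, 23 and 13.4 TPM to 85.7, 67.6 and 85 TPM (limma adjusted p = 0.0169). Myl6b went from 5.5, 5.58 and 3.58 TPM to 30.8, 21.4 and 21.5 TPM (limma adjusted p = 0.00715). Cardiac actin, Actc1, the fetal striated actin, went the other way and fell from 337, 174 and 129 TPM to 65.7, 54.3 and 33.5 TPM (log2 difference -1.98 ± 0.15, limma adjusted p = 0.00801). Its sham level differed widely between mice, and it was lower on the denervated side within each of them. Csrp3, a mechanosensing protein of the Z disc, rose from 421, 228 and 254 TPM to 698, 619.5 and 593 TPM (log2 difference 1.13 ± 0.16, limma adjusted p = 0.032).

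Among adult sarcomere genes, slow troponin T, Tnnt1, rose from 13.5, 15.9 and 21.4 TPM to 61.5, 46.9 and 58.9 TPM (log2 difference 1.71 ± 0.17, limma adjusted p = 0.0156), and fast troponin T, Tnnt3, stood at 5595, 6298 and 6786 TPM against 7837, 7036 and 7022 TPM. Tnnt3 did not pass (limma adjusted p = 0.4), and its summed difference of 0.23 takes the other sign, -0.73, where only its most abundant transcript is counted. The Z-disc protein Actn3 of fast fibers rose from 259.9, 365 and 232 TPM to 826, 858 and 952 TPM and the thin-filament ruler Neb from 339.7, 411 and 347 TPM to 878, 834 and 715 TPM. Their log2 differences were 1.64 ± 0.17 and 1.14 ± 0.11 (limma adjusted p = 0.0163 and 0.0158). Myosin-binding protein H, Mybph, rose and myosin-binding protein C of fast fibers, Mybpc2, fell, with log2 differences of 1.44 ± 0.12 and -0.79 ± 0.13. Myoz1, a calcineurin-binding protein of the Z disc, fell from 561, 542 and 552 TPM to 316, 228 and 241 TPM (log2 difference -1.09 ± 0.12, limma adjusted p = 0.019). In the dystrophin-glycoprotein complex 1 of 15 genes rose, dystrobrevin Dtna, from 28.8, 36.1 and 35.2 TPM to 84.6, 74.1 and 72.1 TPM (log2 difference 1.20 ± 0.14, limma adjusted p = 0.0224).

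**Figure D3:**
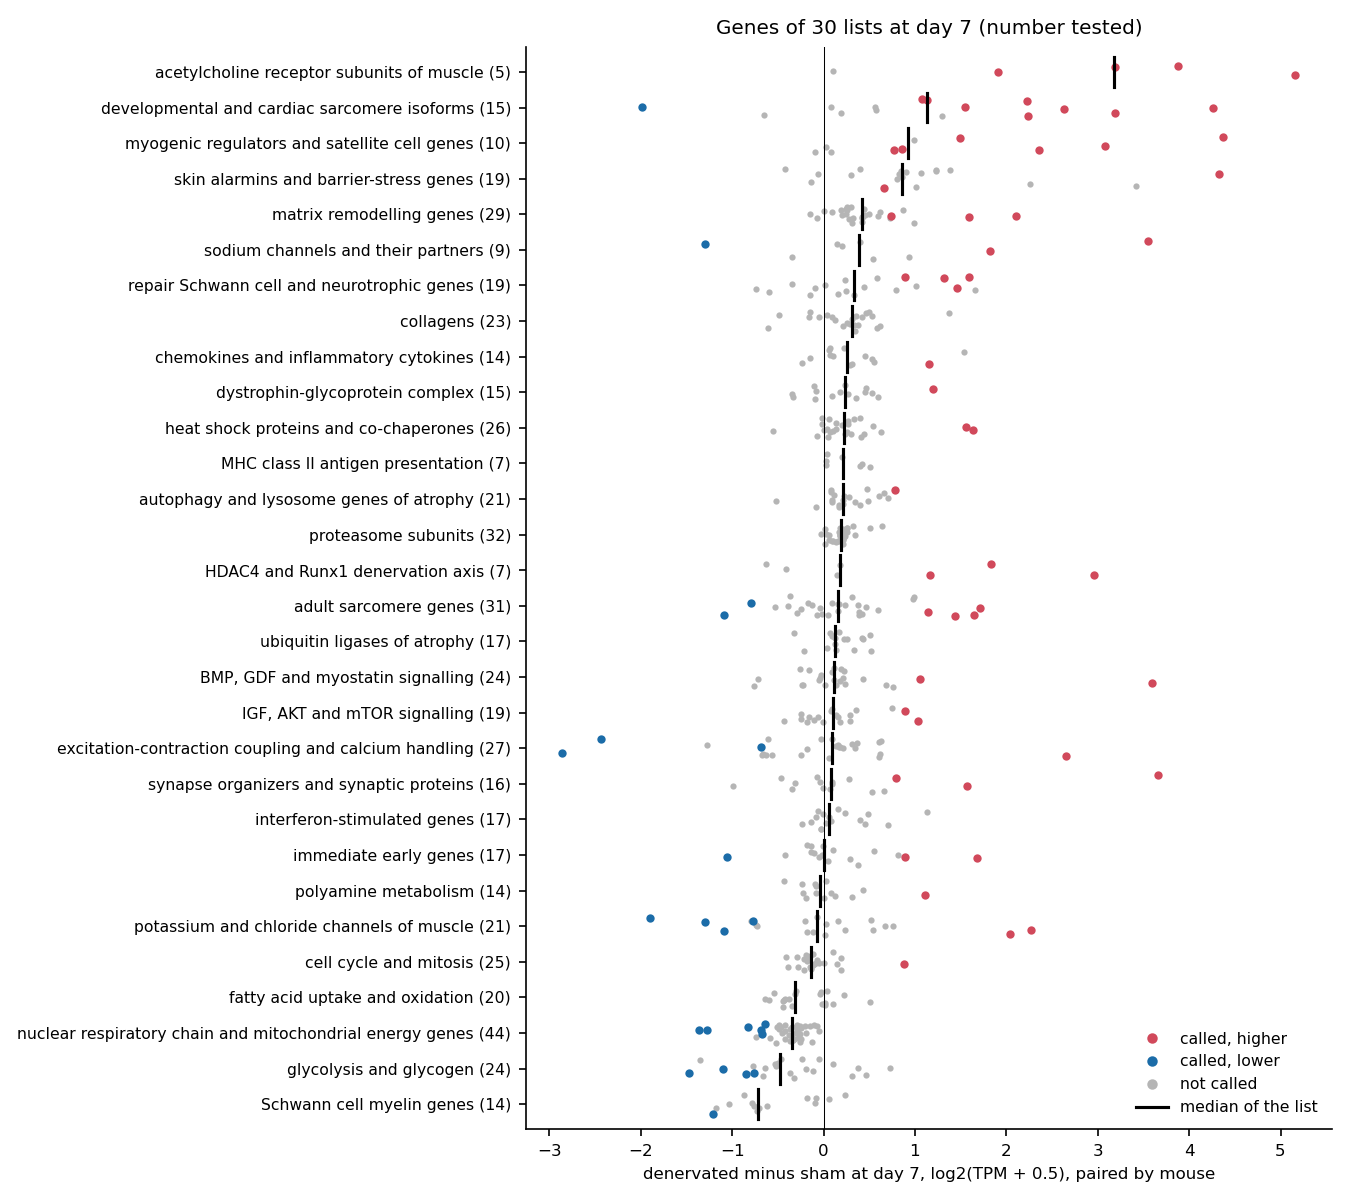
Each point is a gene of a list, placed by its paired log2 difference at day 7, with red for called higher, blue for called lower, grey for not called and a black bar for the median of the list. The lists run from Schwann cell myelin genes, with a median of -0.72, to acetylcholine receptor subunits, with a median of 3.18, and most medians lie near 0.

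Most genes of energy metabolism lay below 0. Calls lower made up 13.6% of the respiratory chain list and 16.7% of the glycolysis list, where 0.749% of all genes tested were called lower. All 44 nuclear-encoded genes of the respiratory chain and mitochondrial energy supply had differences below 0, with a median of -0.34. Of these, 6 were called lower, and 35 were lower at an unadjusted p under 0.05. Cox7a1, the muscle isoform of a cytochrome oxidase subunit, fell from 1155, 992 and 1372 TPM to 511, 391 and 461 TPM. It was the largest fall of the list, a log2 difference of -1.36 ± 0.11 (limma adjusted p = 0.0103). Mitochondrial creatine kinase, Ckmt2, fell from 775, 647 and 794 TPM to 356, 302 and 259 TPM (log2 difference -1.28 ± 0.14, limma adjusted p = 0.0171), beside the cytosolic muscle creatine kinase Ckm, from 2096, 2519 and 2426 TPM to 1158, 1055 and 1029 TPM (-1.12 ± 0.12, limma adjusted p = 0.0183). The other 4 called members, Cox8b, Ndufs7, Ndufa8 and Uqcrq, had log2 differences between -0.82 and -0.64. The 13 mitochondrially encoded genes, a group added after seeing the data, had differences from -0.59 to -0.15, none was called by limma, and 7 had an unadjusted p under 0.05. They took 19.66% to 23.69% of the values in the sham sides and 16.5% to 18.5% in the denervated sides. Of 24 glycolysis and glycogen genes, 4 fell and none rose, with a median of -0.48 and 15 lower at an unadjusted p under 0.05. Phkg1, the catalytic subunit of muscle phosphorylase kinase, fell from 110.3, 117 and 116 TPM to 44.5, 37.2 and 41 TPM (log2 difference -1.48 ± 0.11, limma adjusted p = 0.00801). The muscle enolase Eno3 fell from 1684, 1662 and 1527 TPM to 981, 740.2 and 601 TPM, and the glycolytic enzymes Tpi1 and Pgam2 by smaller steps, -0.84 and -0.76 on the log2 scale. Aldoa and Gapdh, the most abundant genes of the list, stood at 3883, 3850 and 3814 TPM against 3686, 3537 and 3422 TPM and at 4399, 3949 and 3860 TPM against 3313, 3017 and 3113 TPM, and neither passed (limma adjusted p = 0.565 and 0.141). Of 20 genes of fatty acid uptake and oxidation, limma called none, with a median of -0.31 and 9 lower and 1 higher at an unadjusted p under 0.05. The summed muscle fiber markers, at 26573, 31118 and 31051 TPM in the sham sides and 31789, 28896 and 28548 TPM in the denervated sides, overlapped. Of these 12 markers, 1 was itself called higher, Actn3, and 2 lower, Ckm and Eno3, so the sum mixes opposed changes. The muscle-marker scaling reported below rests on the same markers.

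Myelin genes of Schwann cells mostly lay below 0. Of 14 Schwann cell myelin genes 12 lay below 0, with a median of -0.72, 8 lower at an unadjusted p under 0.05 and 1 called. The list summed to 991, 625 and 1046 TPM in the sham sides and 516, 522 and 496 TPM in the denervated sides. The sham sides of mice 1 and 3 stood well above that of mouse 2, and all denervated sides lay below them within a narrow range. Cldn19, a tight junction protein of myelin, was the called gene, at 10.5, 7.51 and 13.9 TPM against 3.51, 3.94 and 5.21 TPM (log2 difference -1.21 ± 0.17, limma adjusted p = 0.032). Pmp22, an abundant protein of compact myelin, stood at 374, 180.1 and 311 TPM against 173, 163 and 163 TPM.

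Among 19 repair Schwann cell and neurotrophic genes, 4 rose and none fell, with a median of 0.33. Jun, the transcription factor that installs the repair state but is made by many cells, rose from 17, 19.8 and 18.3 TPM to 32.6, 33.5 and 37.6 TPM (log2 difference 0.89 ± 0.11, limma adjusted p = 0.0261). The p75 neurotrophin receptor Ngfr rose from 3.44, 6.48 and 5.03 TPM to 13.1, 14.9 and 19.5 TPM (1.60 ± 0.18, limma adjusted p = 0.0198). The motor neuron survival factor Gdnf went from 1.72, 1.76 and 1.67 TPM to 7.64, 4.44 and 5.13 TPM (1.46 ± 0.20, limma adjusted p = 0.033), and the growth factor Btc, an EGF receptor ligand, from 1.98, 1.03 and 0.839 TPM to 4.94, 3.53 and 3.12 TPM. The sides did not overlap for any of these 4 genes. The markers Cntf and S100b, which adult Schwann cells carry, did not pass, at 54.2, 18.9 and 51.2 TPM against 22.4, 20.6 and 23.6 TPM and 24.9, 12.98 and 26.3 TPM against 13.5, 17.3 and 17.7 TPM. The glial marker Gfap was too low to be tested.

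Of 17 immediate early genes, 2 rose and 1 fell. Atf3, an injury-induced factor, rose from 9.04, 6.75 and 6.24 TPM to 25.3, 26.3 and 21.5 TPM (log2 difference 1.67 ± 0.13, limma adjusted p = 0.00881), together with Jun. Nr4a1, a nuclear receptor that responds to muscle activity, fell from 19.6, 18 and 21 TPM to 9.41, 9.45 and 8.55 TPM (-1.05 ± 0.13, limma adjusted p = 0.0229). The cell cycle inhibitor Cdkn1a rose from 112, 102 and 89.6 TPM to 221, 186 and 156 TPM (0.88 ± 0.10, limma adjusted p = 0.019). It was the only called gene among 25 of cell cycle and mitosis, a list whose median was -0.14 and in which the proliferation genes Pcna (78, 43.7 and 64.3 TPM against 65.2, 67.8 and 67.2 TPM) and Top2a (53, 32.9 and 43.7 TPM against 43.4, 35.5 and 31.6 TPM) overlapped between sides.

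Matrix genes lay slightly above 0. Of 29 matrix remodeling genes, 27 lay above 0, 3 rose and none fell, with a median of 0.42. Thbs4, a thrombospondin of tendon and the muscle-tendon junction, measured 25.8, 18.6 and 15.1 TPM in the sham sides and 163, 101 and 37 TPM in the denervated sides, with a spread among the denervated sides of more than 4-fold. Its log2 difference was 2.10 ± 0.27 (limma adjusted p = 0.028). The metalloproteinase inhibitor Timp1 rose from 11.5, 6.84 and 5.17 TPM to 28.1, 20.9 and 21.9 TPM (1.59 ± 0.17, limma adjusted p = 0.017) and Thbs1 from 15.2, 9.22 and 9.95 TPM to 26.1, 16.9 and 15.6 TPM (0.74 ± 0.11, limma adjusted p = 0.0433). Scx, the transcription factor of tendon cells and not a member of that list, rose from 4.52, 9.96 and 7.83 TPM to 55.6, 54.1 and 96.2 TPM, a log2 difference of 3.13 ± 0.25 (limma adjusted p = 0.00866). None of 23 collagens was called by limma, with a median of 0.31 and 10 higher and 2 lower at an unadjusted p under 0.05. Col3a1, the most abundant of them, stood at 187, 142 and 92.6 TPM against 216, 218 and 114 TPM.

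Among immune and skin lists, 10.5% of skin alarmins, 8.33% of macrophage and of keratinocyte markers and 7.14% of chemokines and cytokines were called. The share was 0% for interferon-stimulated and class II genes, and 2.17% over all genes tested. Many members of these lists lay above 0, as did 8453 of the 15081 genes tested. Above 0 lay 16 of 19 skin alarmins, 11 of 12 macrophage markers and 9 of 12 keratinocyte markers. For chemokines and cytokines it was 12 of 14, for interferon-stimulated genes 10 of 17, and for class II genes 7 of 7. At an unadjusted p under 0.05, 11 of 19 skin alarmins and barrier-stress genes, 9 of 12 macrophage markers, 6 of 12 keratinocyte markers and 5 of 14 chemokines and cytokines were higher, where 10.7% of all genes were, and the medians of these lists were 0.86, 0.49, 0.39 and 0.26. The median of the skin alarmins was 2.20 in mouse 1, 0.26 in mouse 2 and 0.57 in mouse 3. None of 17 interferon-stimulated genes and none of 7 class II antigen presentation genes was called by limma, with 5 and 3 higher and none lower at an unadjusted p under 0.05. Of 14 chemokines and inflammatory cytokines, 1 rose: Ccl8, a chemokine of resident macrophages, at 199.9, 76.7 and 35.9 TPM against 359, 187 and 91.7 TPM. Its sides overlapped across mice, but it was higher within each mouse (log2 difference 1.15 ± 0.13, limma adjusted p = 0.0205). The 12 macrophage markers summed to 646, 406 and 244 TPM in the sham sides and 917, 661 and 456 TPM in the denervated sides, higher within each mouse but overlapping. Lyz2, their lysozyme, was the called member (343, 172 and 106 TPM against 508, 334 and 212 TPM, limma adjusted p = 0.0375), and 32.8% of its 31-base words are shared with its paralog Lyz1. Of 19 skin alarmins and barrier-stress genes 2 rose, S100a8 and the cornified envelope gene Sprr1a (log2 difference 0.66 ± 0.10, limma adjusted p = 0.0422). The calcium-binding alarmin S100a8, made by neutrophils and by stressed epidermis, measured 66.8, 179.6 and 40.8 TPM in the sham sides and 2036, 1530 and 1297 TPM in the denervated sides. It rose 20.1-fold (log2 difference 4.33 ± 0.38, limma adjusted p = 0.011). The log2 difference was 4.95 without mouse 2, whose sham side was the highest. Its partner S100a9, named with Csf3r and Cxcr2 after their values were seen, varied between 37.6, 58.7 and 0.89 TPM in the sham sides and 605, 111 and 55.9 TPM in the denervated sides, which overlapped (limma adjusted p = 0.116). The defining neutrophil markers Ly6g, Mpo, Camp, Ltf and Ngp were too low to be tested in these samples. The receptors Csf3r and Cxcr2 did not pass, at 2.55, 3.1 and 0.689 TPM against 3.59, 4.11 and 1.72 TPM and 1.58, 1.55 and 1.34 TPM against 3.59, 1.88 and 1.37 TPM. The neutrophil list summed to 115, 248 and 45 TPM against 2664, 1655 and 1357 TPM, nearly all of it S100a8 and S100a9. All 5 of its members tested, which include S100a8 and S100a9, lay above 0, with a median of 1.19. Of these 5, 4 were higher at an unadjusted p under 0.05 (limma) and 1, S100a8, was called. Flg2, a filaggrin-family protein of the outer epidermis, was the called keratinocyte marker, at 13.6, 15.4 and 4.77 TPM against 39.1, 32.2 and 16.2 TPM. The summed keratinocyte markers, 6678, 7136 and 6102 TPM against 8925, 7139 and 7045 TPM, overlapped.

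**Figure D4:**
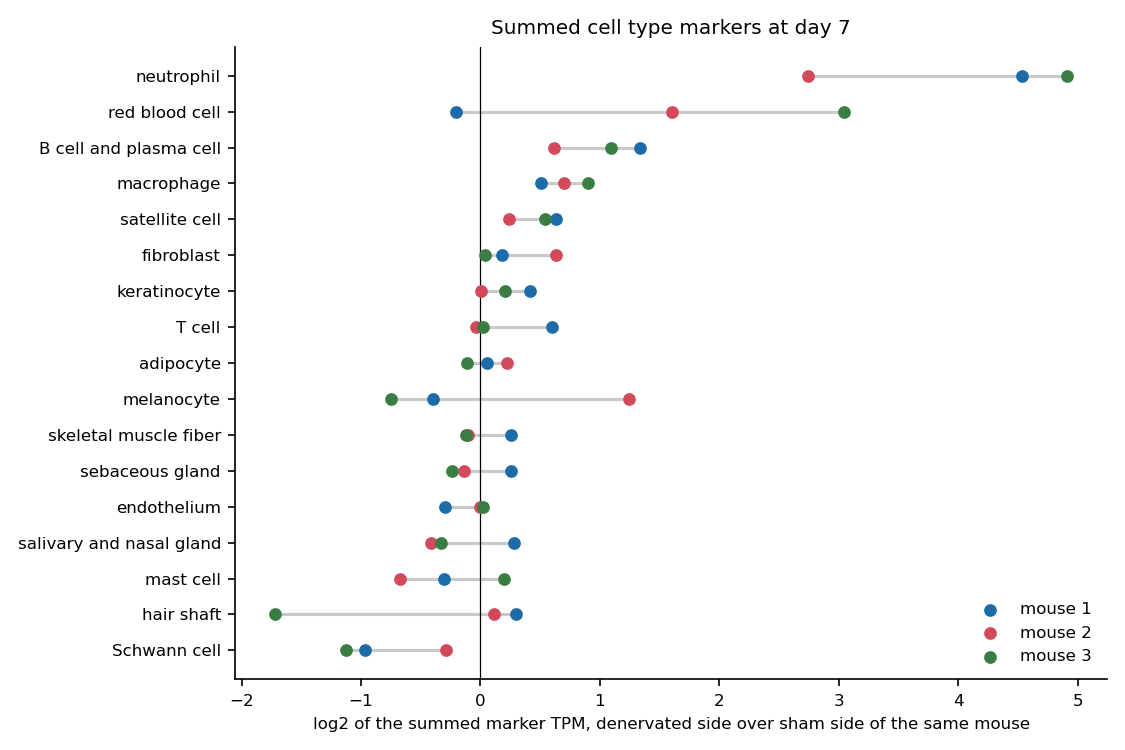
For 17 cell types, points give the log2 ratio of the summed marker level (TPM), denervated side over sham side, in mice 1 (blue), 2 (red) and 3 (green), and a grey bar spans the mice. Muscle fiber sums stay near 0 and Schwann cell sums lie below 0 in every mouse, and the neutrophil sum, which is nearly all S100a8 and S100a9, and the red blood cell sum spread furthest.

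Most other cell types overlapped between sides in their summed markers. Endothelial markers summed to 196, 159 and 153 TPM against 160.0, 159 and 155 TPM, adipocyte markers to 790.0, 614 and 511 TPM against 821, 715 and 473 TPM, and sebaceous gland markers to 1475, 1707 and 941 TPM against 1765, 1552 and 799 TPM. Fibroblast markers summed to 2123, 1271 and 1356 TPM against 2400, 1976 and 1396 TPM, mast cell markers to 366, 603 and 287 TPM against 296, 379 and 329 TPM, and T cell markers to 35.5, 47.1 and 41.1 TPM against 53.9, 45.8 and 41.8 TPM. Hair shaft genes ranged from 1230 to 5273 TPM and melanocyte genes from 18.6 to 74.4 TPM, without order by side. The 6 B cell and plasma cell markers did not overlap, at 5.63, 4.58 and 3.7 TPM against 14.2, 7.02 and 7.9 TPM, but the list is near the limit of detection, with Ms4a1 too low to be tested. The 8 Schwann cell markers summed to 505, 338 and 626 TPM against 258, 276 and 287 TPM, lower in every mouse without overlap. Taken singly, 5 of them lay below 0 and 3 above. At an unadjusted p under 0.05, 4 were lower and 1 higher, and limma called 0 of the 8. Their median log2 difference was -0.86, 0.06 and -0.50 in mice 1, 2 and 3.

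Several of the largest changes lay outside the lists. Igfn1, an immunoglobulin-domain protein of the Z disc, had the largest rise, from 0.124, 1.5 and 0.454 TPM to 47.4, 38.5 and 76.3 TPM, a log2 difference of 5.63 ± 0.42 (limma adjusted p = 0.00791) that became 6.30 without mouse 2. Plekhh1, a pleckstrin-domain protein, rose from 1.89, 2.54 and 1.69 TPM to 17.6, 21.2 and 20.7 TPM (3.01 ± 0.15, limma adjusted p = 0.00488). Hamp2, a hepcidin gene, rose from 2.12, 1.22 and 0.599 TPM to 36.4, 18.1 and 14.4 TPM (3.67 ± 0.15, limma adjusted p = 0.00488), with 32.8% of its 31-base words shared with Hamp. Meig1, best known from spermatogenesis, rose from 0.42, 0 and 0 TPM to 5.33, 2.68 and 3.06 TPM (2.72 ± 0.24, limma adjusted p = 0.0108). Among abundant genes, the nonmuscle myosin regulatory light chain Myl12a rose from 572, 453 and 459.8 TPM to 1622, 1731 and 1356 TPM (1.67 ± 0.12, limma adjusted p = 0.00716). The protease inhibitor Serpinb6a rose from 307, 258 and 251 TPM to 889.6, 685 and 678 TPM, and the iron store ferritin heavy chain Fth1 from 2043, 1622 and 1605 TPM to 3037, 2452 and 2429 TPM. The log2 difference of Fth1, 0.59 ± 0.09 (limma adjusted p = 0.0463), was the smallest of all calls. Other abundant called genes were the galectin Lgals1 and the ion pump regulator Fxyd6, which rose by 0.67 and 0.99 on the log2 scale, and the mitochondrial genes Slc25a4 and Ndufa5, with -0.70 and -0.75. The mitochondrial protein gene Chchd10 fell from 826, 857 and 891 TPM to 446, 359.6 and 485 TPM.

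The values of 3 of the largest changes were uncertain. The chemokine Ccl21b measured 0, 0.043 and 0.0036 TPM in the sham sides and 9.13, 16.98 and 13.7 TPM in the denervated sides, and its predicted near copy Gm21541 measured 5.37, 15.8 and 11.5 TPM and 0.0191, 0.0623 and 0.103 TPM. The pair together gave 5.37, 15.8 and 11.5 TPM in the sham sides and 9.15, 17 and 13.8 TPM in the denervated sides, which overlapped, so neither change is read as a change of the chemokine. The T cell receptor segment Trbj1-4 was listed at 0 in all sham sides and at 5.93, 9.46 and 6.3 TPM in the denervated sides, on a transcript of 51 bases. The summed T cell markers overlapped between sides.

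Among the falls, the salivary and nasal secretory protein gene Bpifa2 stood at 6.95, 10.7 and 5.24 TPM in the sham sides and was listed at 0 in all denervated sides (limma adjusted p = 0.0065). The other members of the gland list that could be tested, 2 genes, were not called, and the gland list summed to 30.7, 41.2 and 39 TPM against 37.2, 30.9 and 31 TPM. Apobec2, a muscle member of the cytidine deaminase family, fell from 109.9, 167 and 164 TPM to 34.1, 28.7 and 29.7 TPM, a log2 difference of -2.21 ± 0.19 (limma adjusted p = 0.0107). Rpl3l, the ribosomal protein that replaces Rpl3 in adult muscle and heart, fell from 197, 237 and 219 TPM to 71.4, 57.2 and 57.6 TPM (-1.81 ± 0.14, limma adjusted p = 0.00826). Asb11, a substrate receptor of a ubiquitin ligase, fell from 35.3, 45 and 50.9 TPM to 10.5, 12.3 and 10.5 TPM and Mlf1, a myeloid leukemia factor abundant in muscle, from 124, 109 and 122 TPM to 45.3, 28.4 and 24.4 TPM. Ramp1, the subunit that makes the receptor for the nerve peptide CGRP, fell from 40.8, 48.5 and 51.5 TPM to 11, 11.2 and 13.7 TPM (-1.93 ± 0.11, limma adjusted p = 0.00488). Snai3, a zinc-finger repressor, fell from 7.97, 10.2 and 7.03 TPM to 1.49, 1.56 and 2.12 TPM, and Hhatl, an acyltransferase-like protein of muscle, from 46, 69.2 and 51.7 TPM to 15.4, 16.8 and 14.8 TPM. The remaining 9 of the 20 largest named falls, Lrrc14b, Stum, Cmbl, Smco1, Klhl33, Lrrc52, Cntnap2, Sec14l5 and Kcna7, had log2 differences from -2.23 to -1.79.

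Whether these changes belonged to day 7 was tested as a difference between the effects of denervation in separate mice at each day. The effect at day 7 differed from that at day 3 in 4 of 15081 genes (0.0265%) and from that at day 1 in 28 (0.186%), at an adjusted p under 0.05 (limma interaction). At an unadjusted p under 0.05 the counts were 1695 and 1731. For the large remainder no difference between days was shown, which does not show that the effects were equal. Against day 1, 16 genes had a higher effect at day 7 and 12 a lower one. Only genes that passed the filter at day 7 were compared. Genes expressed at earlier days alone could not enter, whereas some, such as Trbj1-4, entered through the denervated sides of day 7 alone. The counts and their directions depend on that filter. Chrng had log2 effects of -0.08, 5.71 and 5.16 at days 1, 3 and 7, close to 0 at day 1 only (day 7 minus day 1 5.24 ± 0.44, limma adjusted p = 0.00532). Scx had effects of 0.29, 2.85 and 3.13 at days 1, 3 and 7 (2.84 ± 0.38, limma adjusted p = 0.0332). Sln had effects of opposite sign, 0.94, -1.53 and -2.86 at days 1, 3 and 7 (day 7 minus day 1 -3.80 ± 0.33, limma adjusted p = 0.00532). The solute carrier Slc41a3, a magnesium transporter, also had effects of opposite sign, 2.09, -0.53 and -1.40 at days 1, 3 and 7 (-3.50 ± 0.35, limma adjusted p = 0.00888). Agrp, a melanocortin receptor antagonist, had effects of -0.80, 0.65 and 2.28 at days 1, 3 and 7. The transcriptional coregulator Cited1 had effects of 3.58, 3.89 and 0.17 at days 1, 3 and 7, and its effect at day 7 was lower than at both earlier days (limma adjusted p = 0.0274 against day 3). The phosphatase Dusp13 was highest at day 3, with effects of 0.89, 3.19 and 1.32 at days 1, 3 and 7 (day 7 minus day 3 -1.87 ± 0.18, limma adjusted p = 0.0191), a difference that was lost without the pairing (limma adjusted p = 0.628). The p75 receptor Ngfr had effects of -0.29, 0.65 and 1.60 at days 1, 3 and 7, larger at day 7 than at day 1 (limma adjusted p = 0.0255). Without the pairing, the differences from day 1 of Sln and Ngfr did not pass either (limma adjusted p = 0.0867 and 0.0531). Without mouse 3 of day 7, limma called no gene as different from day 3, with 1613 at an unadjusted p under 0.05, and 6 genes as different from day 1.

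**Figure D5:**
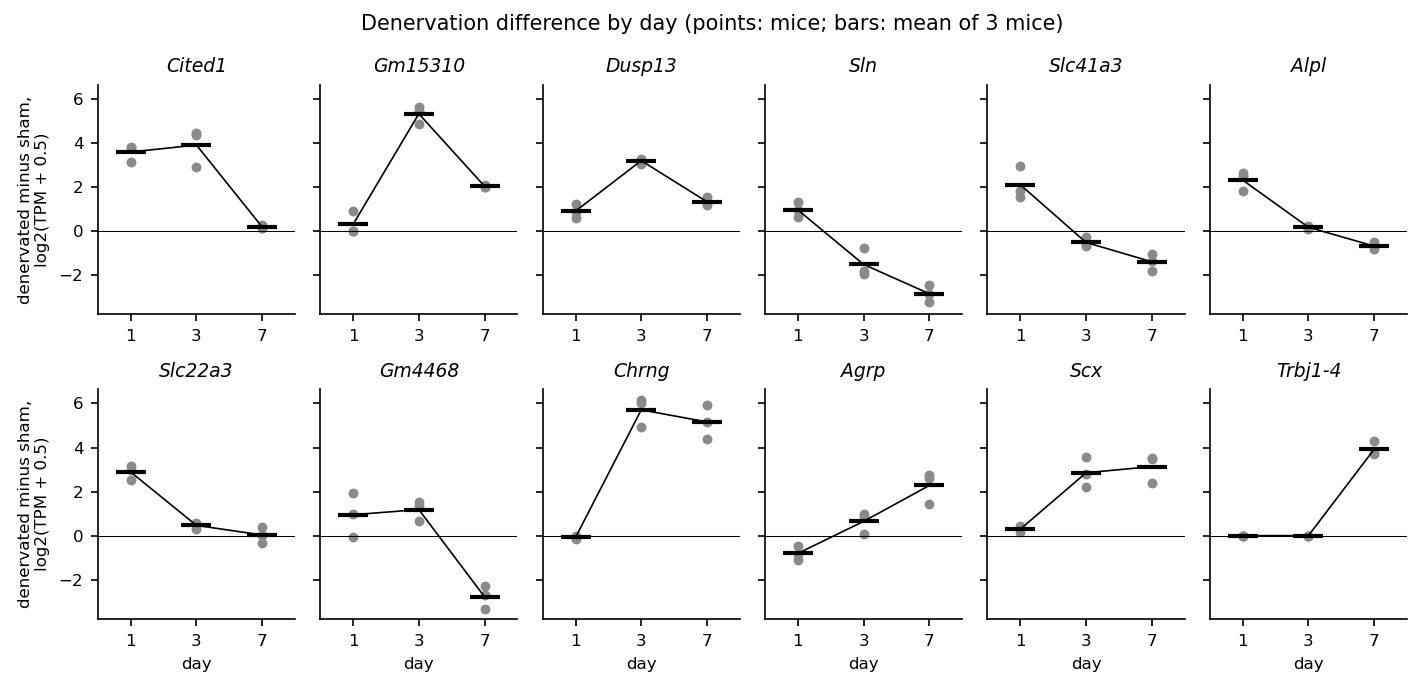
Denervated minus sham difference, as log2(TPM + 0.5), at days 1, 3 and 7 for 12 genes whose effect differed between day 7 and an earlier day. Grey points are mice, 3 different mice at each day, and black bars are their means. Sln and Slc41a3 pass from above 0 at day 1 to below 0 at day 7, Cited1 is near 0 at day 7 alone, and Chrng and Scx are near 0 at day 1 alone.

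The pairing by mouse decided part of the calls. Of the 114 called genes chosen to be named, 26 did not pass when the same samples were compared without the pairing, and none of them changed sign. They were Actc1 (limma adjusted p = 0.0773 without pairing), Lrrc52 (0.0595), Musk (0.0571), Mef2c (0.124), Ctsl (0.148), Clcn1 (0.322), Pvalb (0.174), Mybpc2 (0.18), Pgam2 (0.0635), Ndufs7 (0.297), Uqcrq (0.154), Cox8b (0.243), Cldn19 (0.0837), Btc (0.111), Thbs4 (0.143), Timp1 (0.0519), Thbs1 (0.314), Cdkn1a (0.0595), Ccl8 (0.587), Sprr1a (0.591), Fth1 (0.179), Csrp3 (0.0905), Lgals1 (0.0679), Ndufa5 (0.105), Flg2 (0.32) and Lyz2 (0.549). Over the 17 alternatives their limma adjusted p ranged from 1.69e-09 to 0.591. The 4 called receptor subunits, Myog, Myf6, Hdac4, Runx1, Gdf5, Sln, Pln, Dhrs7c, Ankrd1, Ckm and Cox7a1 passed with and without the pairing.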

How the data were processed

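RNA-seq was made with an unstranded poly(A) kit (TruSeq v2) from punches of whisker pad. The authors removed duplicate reads, trimmed adapters and quantified transcripts with kallisto 0.43.1 against Ensembl GRCm38 cDNA, after base calling with bcl2fastq 2.17.1.14, and sleuth handled the table (per the submitters' processing notes and the study's methods). The deposited values are a normalized signal made by the authors, TPM per transcript scaled between samples, and the columns of day 7 sum to between 970384 and 1143839. They were not treated as counts. Removing duplicates can lower the highest levels, and without strand, overlapping genes on opposite strands cannot be told apart.

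Column names were matched to sample titles by the S number. At day 7 the mouse numbers in the column names differ from those in the titles. Of 113194 transcripts, 98.46% matched GENCODE M21, and their TPM were summed to 35150 genes. Read totals were estimated from the steps between low values, with 1 read in a 1-kb transcript worth 0.081 to 0.1009 TPM. Genes with at least 1 TPM in at least 47% of the 6 samples were tested on log2(TPM + 0.5) with limma 3.58.1 (R 4.3.3), with a mean-variance trend, mouse as a block and Benjamini-Hochberg adjustment at 0.05. This scale understates changes of low genes. The mouse block rests on the sides coming from the same animal. Deviations from the group means correlated at 0.511, 0.147 and 0.367 within mice 1, 2 and 3. Between sides of different mice they correlated at -0.461 to 0.204. The sham side of mouse 2 correlated more with the denervated side of mouse 3 (0.204) than with its own (0.147). Effects were compared between days in 1 fit of all 18 samples, on the genes that passed the filter at day 7. The replicates are separate mice, 3 a group. The fit was tested on simulated data.

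Gene lists were described by counts and medians, with no test. The members and the lists were chosen with earlier results of these data known. Genes are named as the 20 largest rises and the 20 largest falls with the same sign in all mice (predicted genes and pseudogenes only counted), called members of each list, up to 6, with its 2 most abundant uncalled members, the 10 most abundant called genes in each direction, the genes whose effect differed most between days, and called cell type markers. Others are marked where they appear. The alternatives were pairing, pseudocount, filter, scaling, trend, sample set, transcript sum and leaving out each mouse. Shared sequence was measured as the percentage of 31-base words of a gene's main transcript found in other genes. A few genes of the lists are not reported here by name.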

Additional observations from a re-analysis of the deposited data

Results flagged for a closer look

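The following effects of denervation differed between day 7 and an earlier day by the interaction test (limma, adjusted p under 0.05). Values are differences of log2 effects. Against day 3, the difference was 3.92 for Trbj1-4, -3.72 for Cited1, -3.29 for Gm15310 and -1.87 for Dusp13. Against day 1, it was 5.24 for Chrng, 3.92 for Trbj1-4, 3.08 for Agrp, 2.84 for Scx, -3.80 for Sln, -3.73 for Gm4468, -3.50 for Slc41a3, -3.40 for Cited1, -2.99 for Alpl and -2.86 for Slc22a3. For Trbj1-4, Gm15310 and Gm4468 all values of a side at day 7 were listed at 0, so the size depends on the pseudocount. Trbj1-4 was listed at 0 in every library other than the denervated sides of day 7. Gm15310 shares 84.5% of its 31-base words with other genes. Cited1 stood at 7.40 to 22.1 TPM in the denervated sides of days 1 and 3 and at 0.892 to 1.34 TPM at day 7, against 0.121 to 1.93 TPM in the sham sides of days 1 and 3.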

How the results depend on the processing

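The number of genes changed at day 7 was 328 (215 higher, 113 lower). It was 152 (111 and 41) with a filter of any value above 0, 129 (91 and 38) with equal-sum scaling, 722 (446 and 276) with muscle-marker scaling, 202 (143 and 59) without the variance trend, and 68 (51 and 17) with only the most abundant transcript of a gene. With no filter limma called 0 of 25542 genes, with 2890 at an unadjusted p under 0.05. Without 1 mouse it was 69 to 273 (49 to 150 higher, 20 to 123 lower). Without the replicate block, that is without the pairing by mouse, it was 230 (153 and 77), of which 206 were among the 328. The cause of these shifts was not tested. The number of genes whose day 7 effect differs from day 3 was 4, and 1 with a pseudocount of 0.1, 1 at TPM of at least 5, 8 with muscle-marker scaling, and 0 to 1 without 1 mouse of day 7 (with 0 called, 1613 at an unadjusted p under 0.05 by limma). Without the replicate block, these were 3 against day 3 and 32 against day 1. The number of genes whose day 7 effect differs from day 1 was 28, and 16 with a pseudocount of 0.1, 12 with equal-sum scaling and 6 to 18 without 1 mouse. Of the 114 called genes that are named, none reversed, but 69 lost the call without mouse 3, 58 without mouse 2, 30 without mouse 1, 54 with equal-sum scaling, 42 with a filter of any value above 0, 37 without the variance trend, 30 in the fit of all 18 samples, 26 without the pairing and 114 with no filter. With the most abundant transcript 69 of 112 lost it. At most 7 lost it in each other alternative. Uncalled genes took the other sign without 1 mouse, with ranges of -0.23 to 0.51 for Chrne, -0.20 to 0.13 for Id3, -0.042 to 0.18 for Xirp2, -0.14 to 0.25 for Col17a1, -0.097 to 0.35 for Pcna, -0.24 to 0.033 for Dusp1, -0.31 to 0.13 for Krt6a and -0.14 to 0.20 for Slc22a3. Others did so with median-of-ratios scaling (Psmb4 -0.016, Col17a1 -0.0057, Slc22a3 -0.0059), with the added equal-sum scaling that leaves out hemoglobin (Id3 0.046), and with the most abundant transcript (Ube2b -0.067, Casq1 0.089, Tnnt3 -0.73, Sat1 0.00084, Hspa8 -0.0010).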

Other observations

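The genes in this section were chosen after their values were seen, and their values are given without explanation. Among genes known from tendon and connective tissue sheaths, Comp stood at 12.5, 16 and 13.2 TPM in the sham sides against 59.1, 49.6 and 33.3 TPM in the denervated sides, Myoc at 55.8, 74.3 and 53.6 TPM against 395, 325 and 136 TPM, and Angptl7 at 25.9, 17.8 and 14.2 TPM against 118, 83.1 and 34.8 TPM, all without overlap. The tendon gene Tnmd stood at 22.5, 18.1 and 19.4 TPM against 40.0, 32.8 and 19.4 TPM, with overlapping sides and no difference in mouse 3. In the sham sides of days 1 and 3 these genes ranged from 5.75 to 47.5 TPM for Comp, 18.5 to 389 TPM for Myoc, 18.1 to 428 TPM for Angptl7 and 7.79 to 97.4 TPM for Thbs4. Scx stayed between 4.72 and 7.61 TPM in those sham sides.

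The imprinted gene Peg3 measured 9.32, 17.7 and 13.9 TPM in the sham sides of day 7 and 46.1, 51.2 and 55.8 TPM in the denervated sides, and its neighbor Zim1 1.30, 0.922 and 0.826 TPM against 4.65, 4.05 and 3.42 TPM. At day 3 both were also higher on the denervated side, Peg3 at 13.5, 7.33 and 8.74 TPM against 48.3, 32.0 and 37.6 TPM, and Zim1 at 1.11, 1.23 and 0.339 TPM against 5.73, 4.49 and 4.13 TPM. Bpifa2, listed at 0 in every denervated side of day 7, stood at 0.195 to 1.74 TPM in the denervated sides and 0.477 to 7.83 TPM in the sham sides of days 1 and 3.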
